A study of Mus musculus with 12 samples.

Results

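The microRNAs miR-182-5p, miR-183-5p and miR-96-5p, the 5p arms of the 3 hairpins of 1 genomic cluster (Mir183, Mir96 and Mir182), were followed across 12 small RNA libraries of mouse embryonic gonads. The 3 were taken by name from the 616 mature microRNAs listed in the deposited table, and all 3 were detected in all 12 libraries. The libraries came from CD1 mouse embryos, and held either primordial germ cells (PGCs), which later form eggs or sperm, or the gonadal somatic cells (SC) around them. For each cell type there was 1 library from female and 1 from male embryos on each of 3 successive embryonic days (E11.5, then E12.5, then E13.5), so no condition had a replicate and 6 libraries stood for each cell type. All embryos were of the CD1 strain and none carried an allele or treatment that the labels name. The labels' protocols state that gonads without mesonephros were pooled in groups of about 80 and that PGCs were held back on a magnetic column with anti-CD15 beads. What the column did not bind was the SC fraction, so the SC fraction can hold any other cell type of the gonad.

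The cluster is best known from sensory organs, where hair cells, photoreceptors and sensory neurons contain large amounts of its microRNAs. A microRNA guides an Argonaute protein to messenger RNAs through its seed, bases 2 to 8, and microRNAs with similar seeds can share targets. In mice and humans, changes in the seed of miR-96 cause hearing loss. FOXO transcription factors are among the studied targets of miR-182 and miR-96.

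The 3 mature sequences are shown because they differ little where targets are read. They are RefSeq sequences on GRCm38.p6, written 5′ to 3′ with the seed in capitals.
miR-182-5p: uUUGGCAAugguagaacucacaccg
miR-183-5p: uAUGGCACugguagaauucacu
miR-96-5p: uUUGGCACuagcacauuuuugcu
Counting from 1 at the 5′ end, positions 3 to 7 of the seed (UGGCA) were the same in all 3. The seeds of miR-182-5p and miR-183-5p differed by U2A and A8C, those of miR-182-5p and miR-96-5p by A8C, and those of miR-183-5p and miR-96-5p by A2U. Over the whole length, seed included, the likeness was uneven. Lined up from the 5′ end without gaps, miR-182-5p and miR-183-5p were identical at 18 of 22 positions, whereas miR-96-5p matched miR-182-5p at 12 of 23 and miR-183-5p at 13 of 22. No other listed microRNA had the seed of any of the 3.

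All 3 hairpins lie on the minus strand of chromosome 6 within 3820 bases, Mir182 at chr6:30165918-30165992, Mir96 at chr6:30169446-30169551 and Mir183 at chr6:30169668-30169737 (GRCm38.p6). They lie inside the span of an annotated long non-coding RNA gene, Mirc35hg, at chr6:30158640-30174125. Mir96 and Mir183 are 116 bases apart, and Mir182 is 3453 bases from Mir96. The nearest annotated protein-coding genes, Nrf1 and Ube2h, are 12459 and 41551 bases away from the cluster. The hairpins are shown with the 5p arm in capitals, to place each counted arm in its precursor.
Mir183: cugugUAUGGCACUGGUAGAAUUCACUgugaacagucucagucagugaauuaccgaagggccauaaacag
Mir96: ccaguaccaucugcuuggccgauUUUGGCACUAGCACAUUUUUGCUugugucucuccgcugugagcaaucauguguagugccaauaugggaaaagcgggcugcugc
Mir182: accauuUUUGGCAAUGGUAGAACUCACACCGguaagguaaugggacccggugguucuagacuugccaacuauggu

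Levels are given as reads per 1e+06 microRNA reads of a library (RPM), computed from whole reads taken back from the deposited size-factor-normalized values. The libraries held 166804 to 1768825 microRNA reads, with the fewest in PGC female E12.5 and PGC male E12.5. The size factors ran from 0.614 to 1.58 and did not rise with the reads, so values on the deposited scale are given beside the main results. One library stood apart from its label. The miR-290 cluster, microRNAs of pluripotent and germ cells, summed to 2348 RPM in PGC female E11.5, against 71284 to 143011 RPM in the other 5 PGC libraries and 244 to 6036 RPM in SC. In the same library the miR-199, miR-214, miR-143 and miR-145 microRNAs of mesenchymal cells summed to 97255 RPM, within the SC range of 82358 to 130881 RPM, and the endothelial miR-126a arms summed to 51442 RPM, above the SC range of 16088 to 37105 RPM. For the members, RPM fits that rest on PGC female E11.5 are given with and without it. Counts over marker lists are given only with it.

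**Figure D1:**
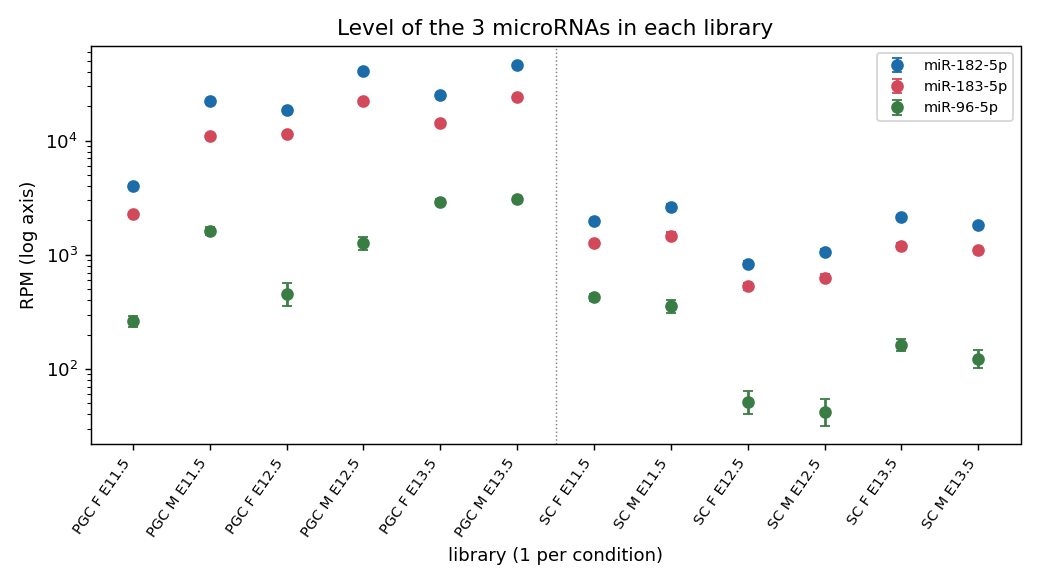
Level of miR-182-5p, miR-183-5p and miR-96-5p in each of the 12 libraries (x axis; F female, M male), in RPM on a log axis. Points are single libraries and bars are exact 95% Poisson intervals for counting error. PGC female E11.5 is the lowest PGC library for all 3, and the E12.5 libraries are the lowest SC libraries for all 3.

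The first question was how the cluster differed between germ and somatic fractions. All 3 members were higher in PGCs than in SC, by about an order of magnitude at equal read totals. Together they made up 0.654, 3.05 and 4.23% of the microRNA reads of female PGCs over the 3 stages in order, and 3.52, 6.45 and 7.35% in male PGCs. In SC they made up 0.368, 0.142 and 0.352% in females and 0.446, 0.174 and 0.303% in males. The Clopper-Pearson intervals at 95% were narrow beside these differences, at 0.640 to 0.669% in PGC female E11.5 and 0.429 to 0.463% in SC male E11.5, the closest PGC and SC values. In a bulk fraction, fewer cells of a type and less RNA per cell cannot be told apart.

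miR-182-5p was the most read of the 3 in every library. At E11.5, E12.5 and then E13.5 it stood at 3985, 18585 and 24966 RPM in female PGCs, and at 22489, 40842 and 46280 RPM in male PGCs. The same series was 1992, 834 and 2152 RPM in female SC and 2631, 1068 and 1813 RPM in male SC. In RPM the lowest PGC library was above the highest SC library. In deposited values the lowest PGC library, at 1965, was below the highest SC library, at 4298. How many of all microRNAs had such a gap, or were higher in PGCs in 6 of 6 pairs, was not counted. By reads miR-182-5p was the 3rd most abundant microRNA of PGC male E13.5 and the 5th of PGC male E12.5. It was the 51st of PGC female E11.5, and ranked between 69th and 118th in SC. The log2 change was 3.67 ± 0.48 (SE, PGC over SC; limma moderated test with the stage-by-sex pair as block, Benjamini-Hochberg adjusted p = 0.000656), higher in 6 of 6 pairs. Of all 473 microRNAs tested, 15.4% were called higher and 23.9% lower in PGCs in this fit.

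miR-183-5p, the member nearest to miR-182-5p in sequence, was read less often than miR-182-5p in each library. It stood at 2295, 11451 and 14391 RPM in female PGCs over the same 3 days, and at 11046, 22429.9 and 24129 RPM in male PGCs. In SC it stood at 1264, 531 and 1205 RPM in females and 1472, 629 and 1092 RPM in males. Here too the lowest PGC library was above the highest SC library in RPM, again without a count over all microRNAs. In deposited values the lowest PGC library, at 1211, was below the highest SC library, at 2727. The log2 change was 3.57 ± 0.49 (SE, limma, adjusted p = 0.000777), higher in 6 of 6 pairs.

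miR-96-5p, which hair cells of the mouse inner ear need to mature, was the least read member. It stood at 263, 456 and 2921 RPM in female PGCs from the first day to the last, and at 1617, 1260 and 3054 RPM in male PGCs. In SC it stood at 427, 51.6 and 163 RPM in females and 355, 42.0 and 122 RPM in males. The groups overlapped through 1 library, PGC female E11.5, which was below both E11.5 SC libraries. The log2 change was 3.04 ± 0.66 (SE, limma, adjusted p = 0.00832), higher in 5 of 6 pairs. The E12.5 values rest on few reads, 76 and 232 in female and male PGCs and 77 and 58 in female and male SC.

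The ratio of PGC to SC differed among the pairs more than among the members. For miR-182-5p the ratio was 2.001 in the female E11.5 pair (1.92 to 2.09, exact 95% interval for counting error) and 8.55 in the male one. One day later it was 22.3 (female) and 38.2 (male), and at E13.5 11.6 and 25.5. For miR-96-5p it was 0.616 (0.539 to 0.703) in the female E11.5 pair, 4.56 in the male one, 8.83 and 30.0 a day later, and 17.9 and 25.0 on the last day. The male pair had the higher ratio at each stage for all 3 members. Without the 2 female E11.5 libraries the log2 changes were 4.21, 4.11 and 3.79 for miR-182-5p, miR-183-5p and miR-96-5p, and all 3 passed. Without both E13.5 SC libraries, and so without the E13.5 PGC libraries they are paired with, the log2 changes were 3.46, 3.34 and 2.37 and none passed (limma on 4 pairs, adjusted p = 0.0903, 0.0992 and 0.199). Without both E12.5 PGC libraries miR-182-5p and miR-183-5p passed and miR-96-5p, at 2.57, did not (adjusted p = 0.127).

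On the deposited scale the same contrast was smaller. Most microRNAs had lower values in PGCs there, with a median log2 change over the 473 of -2.57, against -0.62 in RPM. miR-182-5p changed by 1.44 ± 0.60 (SE, limma, adjusted p = 0.0331) and miR-183-5p by 1.33 ± 0.60 (adjusted p = 0.0464), while miR-96-5p had a log2 difference of 0.82 ± 0.69 that did not pass (adjusted p = 0.262). On that scale 8.25% of the microRNAs tested were called higher and 77.2% lower in PGCs. The ratio of deposited values was below 1 for all 3 members in the female E11.5 pair and for miR-96-5p in the female E12.5 pair.

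**Figure D2:**
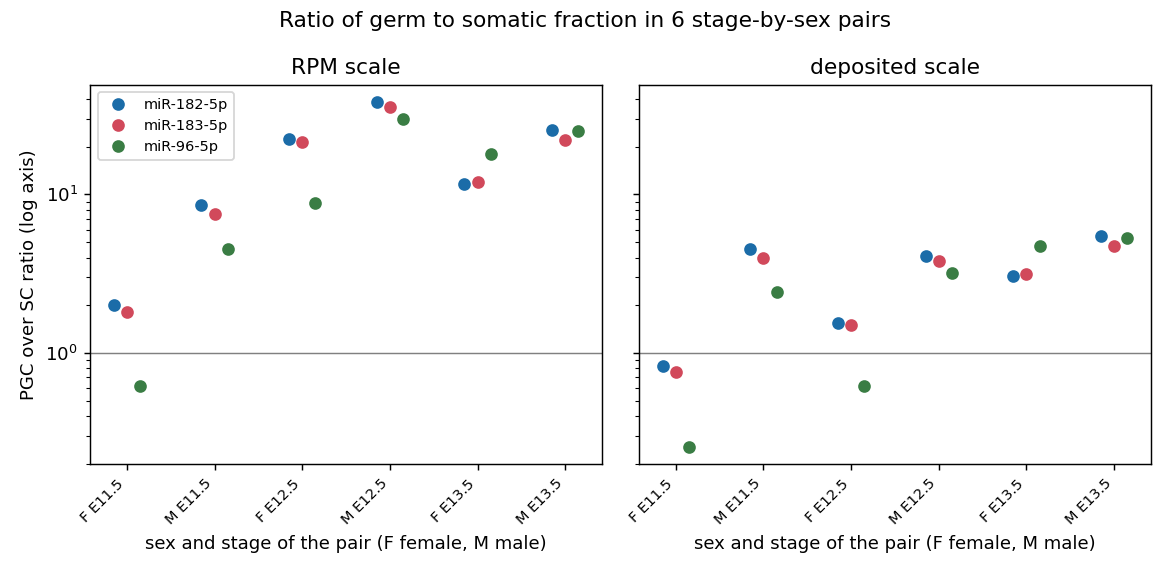
Ratio of the PGC to the SC library of the same sex and stage for each member (log axis; the grey line is 1), from RPM on the left and from deposited values on the right, for 6 pairs on the x axis. In RPM all ratios lie above 1 except that of miR-96-5p in the female E11.5 pair, and on the deposited scale 4 ratios lie below 1.

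The second question was how the members changed over the 3 days in each cell type. In PGCs all 3 were higher at E13.5 than at E11.5 in both sexes. In RPM most of the change of miR-182-5p and miR-183-5p was already present at E12.5. In deposited values both were lower at E12.5 than at E11.5 in either sex. From the fit of all 12 libraries the log2 change, E13.5 over E11.5, was 1.84 ± 0.41 for miR-182-5p (SE, limma, adjusted p = 0.0154), 1.89 ± 0.39 for miR-183-5p (adjusted p = 0.0114) and 2.19 ± 0.57 for miR-96-5p (adjusted p = 0.0267). Of the 473 microRNAs, 8.03% were called higher and 21.8% lower at E13.5. In females the level of miR-182-5p at E13.5 was 6.26 times that at E11.5, and in males 2.06 times. For miR-96-5p the same ratios were 11.1 and 1.89.

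These calls rest on few libraries. Without PGC female E11.5 the changes were 1.103, 1.18 and 1.27 for miR-182-5p, miR-183-5p and miR-96-5p, and none passed (adjusted p = 0.0963, 0.0641 and 0.198 by limma). Without PGC female E13.5 they were 1.38, 1.45 and 1.20, and none passed either (adjusted p = 0.131, 0.102 and 0.188). Leaving out an SC library or an E12.5 PGC library cannot move these changes. The calls can still move, since the fit takes its spread from all 12 libraries. From the 6 PGC libraries alone the changes were the same and none passed (limma, adjusted p = 0.0950, 0.0858 and 0.124). With each library left out in turn miR-96-5p passed in 4 of 12 fits. With an E11.5 or E13.5 PGC library left out the changes ran from 1.103 to 2.59 (miR-182-5p), 1.18 to 2.59 (miR-183-5p) and 1.20 to 3.18 (miR-96-5p). On the deposited scale the changes were 1.23, 1.27 and 1.57, none passed (adjusted p = 0.247, 0.220 and 0.137), and 8.46% of microRNAs were called higher and 26.6% lower. The low germ marker level and high mesenchymal level of PGC female E11.5 moved with this result. In male PGCs the marker levels differed between these stages too: at E13.5 and E11.5 the mesenchymal microRNAs summed to 9726 and 66336 RPM, the endothelial ones to 6751 and 27782 RPM, within the SC range at E11.5, and the epithelial ones to 44730.4 and 24663 RPM. The part of other cell types in the stage change was not tested.

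In RPM the members did not take the same course from day to day. miR-182-5p stood at 4.66 (female) and 1.82 (male) times its E11.5 level in PGCs at E12.5, and its E13.5 level was 1.34 and 1.13 times that at E12.5. The ratios of miR-183-5p were 4.99 and 2.03 for the first day and 1.26 and 1.08 for the second. miR-96-5p had its larger step on the second day. Its ratios were 1.73 (female) and 0.779 (male) for the first day and 6.41 and 2.42 for the second. In deposited values all 3 members fell on the first day and rose on the second in both sexes. There miR-182-5p stood at 3578, 1965 and 9716 in female PGCs and at 8312, 6021 and 16739 in male PGCs. The first-day fall of miR-183-5p was from 2061 to 1211 (female) and from 4083 to 3306 (male). With 1 library per condition these single-day ratios have no replicate check.

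In SC no member passed between E13.5 and E11.5. The log2 differences were -0.21 ± 0.41 for miR-182-5p (SE, limma, adjusted p = 0.792), -0.25 ± 0.39 for miR-183-5p (adjusted p = 0.745) and -1.46 ± 0.57 for miR-96-5p (adjusted p = 0.174), in a fit that called 8.67% of microRNAs in either direction and 7.19% as higher. In deposited values the first 2 differences were 0.15 and 0.11, of the opposite sign, and that of miR-96-5p was -1.096 (none passed). The E12.5 SC libraries were the lowest of both sexes for all 3. At E12.5 miR-182-5p stood at 0.419 (female) and 0.406 (male) times its E11.5 level, miR-183-5p at 0.420 and 0.427 times, and miR-96-5p at 0.121 and 0.118 times. The 2nd step was upward in all 6 cases, by 2.58 (female) and 1.70 times (male) for miR-182-5p, 2.27 and 1.73 times for miR-183-5p and 3.16 and 2.91 times for miR-96-5p. The miR-290 cluster microRNAs in SC summed to 336, 421 and 3659 RPM in females and to 244, 619 and 6036 RPM in males over the 3 days. The part of germ cell RNA in the E13.5 SC values was not tested.

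The difference between the stage changes of PGCs and SC was tested as an interaction and did not pass for any member. It was 2.06 ± 0.59 (SE, log2) for miR-182-5p, 2.14 ± 0.55 for miR-183-5p and 3.65 ± 0.81 for miR-96-5p (limma, adjusted p = 0.112, 0.101 and 0.0787). In this test 0% of the 473 microRNAs were called, and 99 had an unadjusted p under 0.05. With voom weights 0 were called as well. The value of miR-96-5p ranked 12th from the highest among the 473. Without PGC female E11.5 the values were 1.31, 1.43 and 2.72 for miR-182-5p, miR-183-5p and miR-96-5p, and on the deposited scale 1.07, 1.15 and 2.67, and none passed in either case. With a pseudocount of 10 RPM that of miR-96-5p was 3.57 and passed (adjusted p = 0.0492).

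The third question was whether the members differed between the sexes. In PGCs all 3 had lower RPM in the female library at each stage, but no difference passed after adjustment. The log2 difference, female minus male, was -1.51 ± 0.34 for miR-182-5p (SE, limma, unadjusted p = 0.00321, adjusted p = 0.203), -1.33 ± 0.32 for miR-183-5p (unadjusted p = 0.00454, adjusted p = 0.203) and -1.38 ± 0.47 for miR-96-5p (unadjusted p = 0.0221, adjusted p = 0.256). No microRNA was called in this comparison (0% of 473 by limma and 0 by voom), and 81 had an unadjusted p under 0.05. On the deposited scale the log2 differences were -1.21, -1.02 and -1.07 for miR-182-5p, miR-183-5p and miR-96-5p, and none passed. There the female value of miR-96-5p at E13.5, 1137, was above the male one, 1105. In RPM the female over male ratio of miR-182-5p was 0.177, 0.455 and 0.539 over the 3 days. That of miR-96-5p was 0.163, 0.362 and 0.957. Without PGC female E11.5 the log2 differences were -1.01, -0.86 and -0.76 for the 3 members in the order above, and none passed. The summed mesenchymal microRNAs lay above the male level in the female PGC library of each stage, at 97255 RPM (female) against 66336 RPM (male) at E11.5, 22553 (female) against 12249 RPM (male) at E12.5 and 31513 (female) against 9726 RPM (male) at E13.5. Their part in the sex difference was not tested.

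In SC the log2 sex differences were -0.17 ± 0.34 for miR-182-5p, -0.11 ± 0.32 for miR-183-5p and 0.32 ± 0.47 for miR-96-5p (SE, limma, adjusted p = 1 for each). Here also 0% of microRNAs were called (0 by voom), and 17 had an unadjusted p under 0.05. On the deposited scale the differences of miR-182-5p and miR-183-5p were 0.35 and 0.41, of the opposite sign and not past the threshold. The female minus male difference of PGCs minus that of SC was -1.34 ± 0.48, -1.22 ± 0.45 and -1.70 ± 0.66 for miR-182-5p, miR-183-5p and miR-96-5p (limma, adjusted p = 0.394 for each), with 0% of microRNAs called (0 by voom) and 58 at an unadjusted p under 0.05. Without PGC female E11.5 these values were -0.84, -0.75 and -1.09, and none passed.

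The make-up of the reads of the 3 does not depend on the scale, since it is taken within a library. miR-182-5p gave 59.1 to 64.0% of them in PGCs and 54.1 to 61.4% in SC. miR-183-5p gave 31.4 to 37.6% in PGCs and 33.0 to 37.5% in SC. miR-96-5p gave 1.49 to 6.91% in PGCs and 2.41 to 11.6% in SC. The summed level spanned 1416 to 73464 RPM. Relative to their size, the shares of the 2 larger members thus varied little and that of miR-96-5p varied more. In percentage points the SDs (n = 6) were alike in PGCs, at 1.87, 2.09 and 1.96 for miR-182-5p, miR-183-5p and miR-96-5p. In SC they were 2.65, 1.63 and 3.43. All of these values describe shares of reads, and small RNA cloning does not capture all sequences equally.

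The miR-96-5p share was lowest on the middle day in both cell types. From the first day to the last it was 4.02, 1.49 and 6.91% in female PGCs, and 4.60, 1.95 and 4.16% in male PGCs. In SC it was 11.6, 3.64 and 4.63% in females and 7.96, 2.41 and 4.04% in males. The 4 E12.5 libraries were thus below all other libraries of their cell type. In SC the exact 95% binomial interval of the female E12.5 value (2.88 to 4.53%) overlapped those of both E13.5 libraries, and in PGCs the highest E12.5 bound, 2.22%, was below the lowest bound of the other stages, 3.60%.

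**Figure D3:**
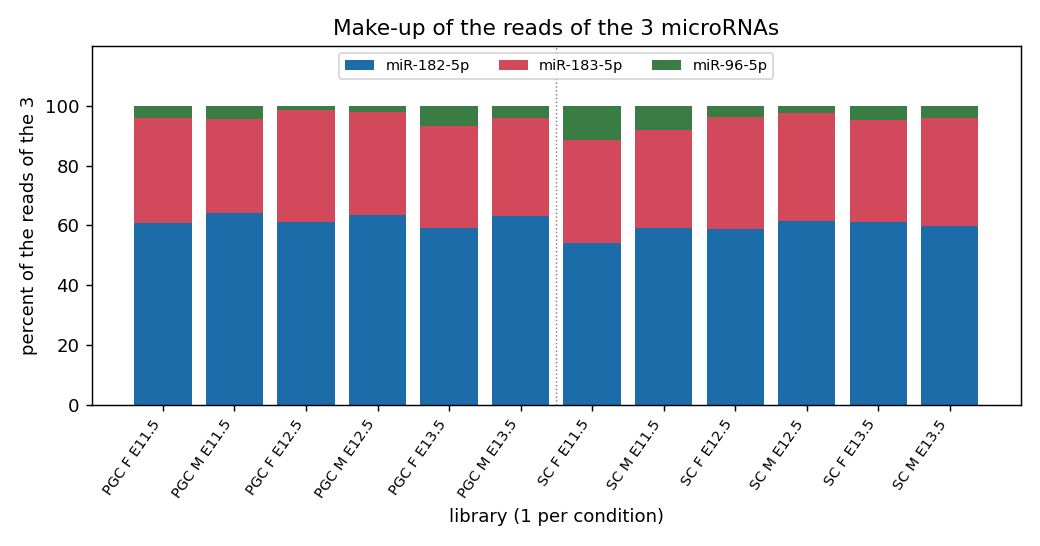
Percent of the reads of the 3 members that came from miR-182-5p, miR-183-5p and miR-96-5p in each library (x axis; F female, M male), as bars that add to 100%. The miR-96-5p segment is thinnest at E12.5 in both cell types and thickest in SC female E11.5, at 11.6%.

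The ratio of 2 members was compared between the cell types over the 6 pairs with an exact two-sided sign-flip permutation test, whose smallest p is 0.03125. The log2 ratio of miR-182-5p to miR-183-5p had a mean of 0.85 ± 0.12 (SD, n = 6) in PGCs, against 0.75 ± 0.08 (SD, n = 6) in SC, higher in 5 of 6 pairs (exact p = 0.0625, adjusted p = 0.1875 over 3 ratios). That of miR-96-5p to miR-182-5p was -4.18 ± 0.84 in PGCs and -3.57 ± 0.87 in SC (exact permutation p = 0.156, adjusted p = 0.219), and that of miR-96-5p to miR-183-5p was -3.33 ± 0.89 in PGCs and -2.82 ± 0.87 in SC (exact permutation p = 0.219, adjusted p = 0.219). No ratio passed this test.

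Within each cell type the members varied together across the 6 libraries, most closely for miR-182-5p and miR-183-5p, the 2 most read members. Why this pair was the closest was not tested. Pearson's r of log2(RPM + 1) between miR-182-5p and miR-183-5p was 0.996 in PGCs and 0.994 in SC (exact permutation p = 0.00278 in each, adjusted p = 0.00833 over 6 relations). Spearman's rho was 0.943 in both (exact permutation p = 0.0167, adjusted p = 0.05). Without the 2 libraries farthest from the median r was 0.959 in PGCs and 0.934 in SC. Between miR-96-5p and miR-182-5p r was 0.815 in PGCs and 0.880 in SC (exact permutation p = 0.0264 and 0.0389, adjusted p = 0.0389 in both), with a rho of 0.829 and 0.771 (adjusted exact p = 0.0875 and 0.123). Without the 2 farthest libraries r was 0.349 and 0.519. Those libraries were PGC female E11.5 and PGC male E13.5 in PGCs and both E12.5 libraries in SC. Leaving them out narrows the range and leaves 4 libraries, so the fall cannot show that the relation rests on them. Between miR-96-5p and miR-183-5p r was 0.789 in PGCs and 0.919 in SC (exact permutation p = 0.0333 and 0.0153, adjusted p = 0.0389 and 0.0306), with a rho of 0.714 and 0.886 (exact p = 0.136 and 0.0333, adjusted p = 0.136 and 0.0667), and 0.221 and 0.781 without those libraries.

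Of the 344 microRNAs with a mean of at least 50 RPM, those whose pattern over the 12 libraries was most like the mean of the 3 members were miR-106a-5p (Pearson's r = 0.972), miR-20b-5p (0.972), miR-363-3p (0.971), miR-31-5p (0.948) and miR-29a-3p (0.923). The first 3 are encoded together in 1 cluster on the X chromosome. The mean of miR-20b-5p over the 6 PGC libraries was 5534 ± 2989 RPM (SD), against 245 ± 110 RPM over the 6 SC libraries. That of miR-106a-5p was 1918 ± 1002 RPM in PGCs, against 148 ± 60.6 RPM in SC. With the mean of each cell type removed, the highest values were those of miR-363-3p (0.889), miR-106a-5p (0.889), miR-20b-5p (0.882), miR-31-5p (0.853) and miR-200a-3p (0.809), an epithelial microRNA. These values are descriptions, and the 12 points share library totals and the low PGC female E11.5 library.

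The summed epithelial microRNAs (miR-200a, miR-200b, miR-200c, miR-141 and miR-429) moved with the members between the cell types, at 11288 to 47348 RPM in PGCs and 1432 to 9947 RPM in SC. All 5 were detected in each cell type, 4 of 5 were called higher in PGCs (15.4% of all tested), and 1 of 5 was called higher at E13.5 in PGCs (8.03% of all tested). In deposited values 0 of 5 were called between the cell types by limma (0 at an unadjusted p under 0.05, median log2 difference 0.44), and 0 of 5 between the stages of PGCs (1 at an unadjusted p under 0.05). Epithelial cells as a part of the members' values were not tested.

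**Figure D4:**
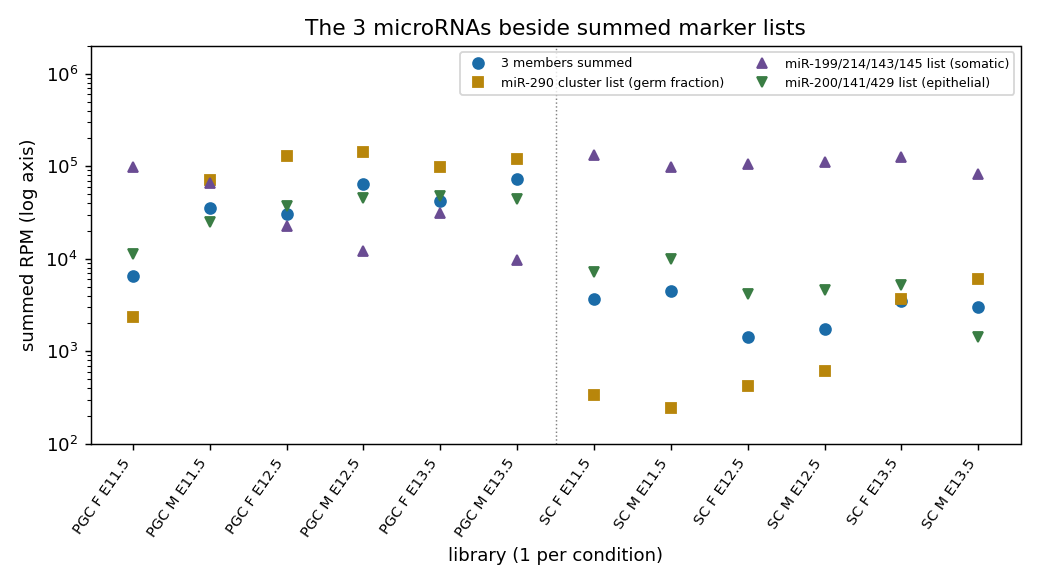
Summed RPM (log axis) of the 3 members, the miR-290 cluster list, the mesenchymal list and the epithelial list in each library (x axis; F female, M male). In PGC female E11.5 the miR-290 list lies at 2348 RPM and the mesenchymal list at 97255 RPM, near the SC libraries, and the members lie at 6544 RPM, between the other PGC and the SC libraries.

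The other arms of the same hairpins gave few reads. miR-182-3p had 8, 13, 20 and 25 reads in PGC female E11.5, PGC male E11.5, PGC female E13.5 and PGC male E13.5, 5 reads in SC female E11.5, and was listed at 0 in the other 7 libraries. miR-96-3p had 10, 12 and 5 reads in PGC male E12.5, PGC female E13.5 and PGC male E13.5 and was listed at 0 in the other 9. A value of 0 stands for under 5 reads, so that floor was 2.83 to 29.98 RPM, and the 3p arms could not be detected at lower levels. miR-183-3p was not among the microRNAs listed, so it has no values here.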

How the data were processed

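Small RNAs (total RNA under 100 bp) were sequenced on a MiSeq. FastQC, Trim Galore, Bowtie 1.1.2, GRCm38 and DESeq are named in the submitters' processing notes, and how reads were counted is not given in the sources used here. What the authors deposited is a normalized signal per mature microRNA, equal to a read count over the size factor of its library. Of these values 100% were whole multiples (tolerance 1e-06) of the library's smallest value divided by 5, none stood for 1 to 4 reads, and 1797 of 7392 were 0, read as under 5 reads. Reads and RPM were computed from them.

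log2(RPM + 1) of the 473 microRNAs with a mean of at least 10 RPM was tested with limma 3.58.1 in R 4.3.3 (empirical Bayes with trend, Benjamini-Hochberg, called at adjusted p under 0.05), in 7 comparisons. Cell types were compared with the stage-by-sex pair as block, though the labels name no shared pool of gonads. One fit of all 12 libraries held stage and sex terms for each cell type. No condition was repeated, so a p-value reflects the spread among these libraries and not among repeated isolations. Intervals and floors cover counting error only: reads copied by PCR, with no molecular identifier, are not separate molecules.

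Named microRNAs were the 3 members, the 3p arms, listed microRNAs with a member's seed, and those with the 5 highest correlations to the members' mean. Members, marker lists (germ, mesenchymal, gonadal somatic, endothelial, erythroid, muscle, neural, epithelial, kidney and liver) and tests were chosen with earlier results of these data known. Sequences and positions are from RefSeq on GRCm38.p6. Alternatives were the deposited scale, another pseudocount, no filter, voom, other designs and left-out libraries.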

Additional observations from a re-analysis of the deposited data

Results flagged for a closer look

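Among 20 sets of 6 libraries of 1 cell type (level, deposited value and share of each member, and the summed share), 2 had a library far from the rest, against about 1 in 20 by chance. Both concern SC female E11.5. Its deposited value of miR-96-5p was 921, against 58.1 to 247 in the other SC libraries, while in RPM it was 427, against 355 in SC male E11.5. Its share of miR-182-5p among the reads of the 3 was 54.1%, the lowest of the 6 SC libraries.

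From E11.5 to E13.5 both PGC libraries of miR-183-5p and of miR-96-5p moved up in RPM and both SC libraries moved down, which is why these are listed here. The difference between the cell types was 2.14 for miR-183-5p and 3.65 for miR-96-5p on the log2 scale, and neither passed (limma, adjusted p = 0.101 and 0.0787). In RPM the female library of miR-96-5p was lower than the male one at all 3 stages in PGCs and higher at all 3 in SC. The exact 95% Poisson intervals of the sexes overlapped at all 3 SC stages and in PGCs at E13.5. The last were 2762 to 3088 RPM (female) and 2884 to 3232 RPM (male). In deposited values the order in PGCs at E13.5 was reversed, at 1137 (female) and 1105 (male). The difference between the sex effects of PGCs and SC was -1.70 on the log2 scale in RPM and did not pass (limma, adjusted p = 0.394).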

How the results depend on the processing

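Of 438 values of the members under the alternatives, 405 kept their direction and their side of the threshold, 27 fell short of it, 1 newly passed and 5 changed sign. Many of the 438 were fixed or repeated, so these counts do not measure robustness. Leaving out a library of 1 cell type cannot move the stage and sex changes of the other, though it can move their p-values. In block fits, leaving out either library of a pair gives the same fit. Both voom fits, added after seeing the data, kept the calls of all members. On the deposited scale the cell type comparison called 404 microRNAs (186 in RPM), with miR-96-5p at 0.82 (adjusted p = 0.262). The PGC stage changes were 1.23, 1.27 and 1.57 for miR-182-5p, miR-183-5p and miR-96-5p and did not pass there. The signs of miR-182-5p and miR-183-5p turned in the SC stage comparison (0.15 and 0.11) and the SC sex comparison (0.35 and 0.41). That scale called 6 microRNAs between SC sexes and 8 for the stage interaction. A pseudocount of 10 RPM called 17 for the interaction, miR-96-5p among them (3.57, adjusted p = 0.0492). With no block and no covariate 84 were called between the cell types. PGC libraries alone called 80 for stage, and the members (1.84, 1.89 and 2.19) did not pass. Without both E11.5 female libraries 0 were called for PGC stage (members 1.103, 1.18 and 1.27) and 24 for SC stage. Without both E12.5 PGC libraries 15 were called between the cell types and miR-96-5p did not pass (2.57). Without both E13.5 SC libraries 7 were called, and the members (3.46, 3.34 and 2.37) and the PGC stage change of miR-96-5p (2.19) did not pass. In block fits a left-out library takes its partner with it, so these fits hold fewer pairs; otherwise the cause was not tested.

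With each library left out in turn, the cell type comparison called 83 to 227 microRNAs, the lowest without the male E12.5 pair. All 3 members passed each time. Leaving out either library of a pair gives the same fit, so there was 1 distinct fit per stage-by-sex pair. PGC stage called 92 to 142, with 1.103 to 2.59 for miR-182-5p, 1.18 to 2.59 for miR-183-5p and 1.20 to 3.18 for miR-96-5p, which passed in 4 of 12 fits. SC stage called 0 to 50, with 0 without SC male E11.5, and miR-182-5p at -0.53 to 0.10. The stage interaction called 0 to 2. No paired analysis by replicate number was possible because the labels number none. Both edgeR alternatives were not run, and voom on the recovered reads stands in their place. Fewest reads limit the E12.5 PGC libraries.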

Other observations

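The other marker lists place the fractions against which the members are read. Between the cell types, 14 of the 14 tested miR-290 cluster arms were called higher in PGCs, with a median log2 change of 5.88, against 15.4% of all microRNAs tested and a median of -0.62. The same 14 were called higher on the deposited scale. All 10 mesenchymal microRNAs were called lower (median -2.08), as were 1 of 2 endothelial, 1 of 2 gonadal somatic and 1 of 3 muscle microRNAs, against 23.9% of all tested. All 3 kidney microRNAs (miR-192, miR-194 and miR-204) were called higher, at 1262 to 3551 RPM in PGCs and 627 to 1003 RPM in SC summed. Of 3 neural microRNAs tested 1 was called higher and 1 lower, and by limma 0 of 5 erythroid microRNAs passed (2 at an unadjusted p under 0.05), as did 0 of 1 for liver (miR-122-5p, 0 unadjusted). In deposited values, where 77.2% of all tested were called lower, the lower calls numbered 10 of 10 mesenchymal, 2 of 2 endothelial, 2 of 2 gonadal somatic, 3 of 3 muscle, 2 of 3 neural, 5 of 5 erythroid and 1 of 1 liver. There 0 of 3 kidney microRNAs were called by limma (0 at an unadjusted p under 0.05), and their median log2 difference, -1.19, had the opposite sign to the 1.03 in RPM.

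In PGCs at E13.5 over E11.5, 9 of 10 mesenchymal, both endothelial, all 3 tested muscle and 2 of 5 erythroid microRNAs were called lower, against 21.8% of all tested, while by limma 0 of the 14 miR-290 cluster arms passed (median 3.05, 11 at an unadjusted p under 0.05). On the deposited scale 11 of these 14 were called higher (8.46% of all tested). There 10 of 10 mesenchymal, 2 of 2 endothelial, 3 of 3 muscle and 4 of 5 erythroid were called lower (26.6% of all tested). These counts include PGC female E11.5 and were not repeated without it. The miR-290 cluster summed to 2348 and 97754 RPM in female PGCs at E11.5 and E13.5, and to 71284 and 119349 RPM in male PGCs. The gonadal somatic arms miR-202-5p and miR-202-3p were both called higher at E13.5 in PGCs (8.03% of all tested) and in SC (7.19% of all tested), on the deposited scale too. They summed to 264 and 155 RPM in female and male PGCs at E11.5 and to 3054 and 1063 RPM at E13.5, and in SC to 231 and 154 RPM at E11.5 and to 8566 and 19053 RPM at E13.5.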
